A study of Mus musculus with 6 samples.

Results

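Autophagy is the process by which a cell wraps parts of its own cytoplasm in a double membrane, the autophagosome, and delivers them to the lysosome for breakdown. Here 37 genes of autophagy and of the nutrient sensing that governs it were examined in bone marrow-derived macrophages (BMDMs) that lack the tyrosine kinase PYK2. The genes were listed by name and role, with earlier results of these data known, and all 37 were found among the 55291 rows of the count table. After removal of genes with low counts, 36 of them were among the 9815 genes tested, and the missing member was Atg12. BMDMs are primary cells, here cultured from marrow for 7 days in medium with L929-conditioned medium as the source of M-CSF, with no other stimulus named for these samples. RNA was sequenced by a bulk form of MARS-seq, which reads the 3′ ends of transcripts, in 3 WT C57BL/6 mice (numbered 1, 5 and 6) and 3 Pyk2 knock-out mice on the same background (PYK2 KO, numbered 2, 3 and 4), with 1 library per mouse. The knock-out is constitutive, so the gene was disrupted in every cell of the donor mice and not only in macrophages. Age and sex of the donors are not given in the sources used here.

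When nutrients are plentiful, the kinase mTOR in its complex mTORC1 is held active on the lysosome by the Rag GTPases and their anchor, the Ragulator, and keeps autophagy low. Starvation releases the ULK1 kinase complex and then the lipid kinase complex around VPS34 and Beclin 1, and 2 ubiquitin-like conjugation systems attach the small proteins of the Atg8 family (LC3 and GABARAP) to the growing membrane. Cargo receptors such as p62 bind both their cargo and these Atg8 proteins. TFEB and TFE3, transcription factors that mTORC1 keeps in the cytoplasm, drive many autophagy and lysosome genes once released. In macrophages the same machinery also handles engulfed microbes and dying cells.

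Library totals ranged from 2857097 to 3917207 counts. Ptk2b, which encodes PYK2, had 737, 701 and 568 counts in WT and 71, 64 and 69 in PYK2 KO libraries, and its level in PYK2 KO was 11.2% of WT (log2 fold change -3.15, standard error 0.10, adjusted p = 1.03e-11). All 8 macrophage markers examined were detected in all libraries, with a summed level from 29147 to 29897 CPM in WT and from 30334 to 31332 CPM in PYK2 KO. Their means in PYK2 KO lay between 94.3% (Adgre1) and 115% (Mertk) of WT, below WT for Adgre1, Csf1r, Cd68 and Cd14 and above WT for Lyz2, Itgam, Mertk and Fcgr1, without overlap for Lyz2 and Itgam, and none of the 8 passed the test. Lyz2, which is part of the summed level, averaged 24068 CPM over WT and 25389 CPM over PYK2 KO mice. CPM are counts per 1000000 counts of the scaled library. Of the markers of other cells, 5 of 6 for dendritic cells and 4 of 5 for erythroid cells, the defining Flt3 and Hbb-bs among them, were at 0 in every library. The 7 neutrophil markers summed to between 108 and 156 CPM in WT and between 118 and 206 CPM in PYK2 KO, and of the 5 that were tested the estimate lay above 0 for S100a8, S100a9, Mpo and Ngp and below 0 for Camp. S100a9 was at 44.9 ± 22.5 and 82.3 ± 27.8 CPM (log2 fold change 0.85, unadjusted p = 0.00596 and adjusted p = 0.537 in edgeR). Mpo had 6, 12 and 4 against 11, 14 and 21 counts, which did not overlap once scaled to CPM (log2 fold change 1.19, unadjusted p = 0.00908 and adjusted p = 0.591 in edgeR). Cd79b, a marker of B cells, was detected with 43 to 80 counts per library, and its genotypes overlapped. The T cell and stromal lists summed to at most 9.52 CPM and 1.53 CPM. The part of the neutrophil transcripts in the values below was not tested. The 4 Y-linked genes examined had 0 counts throughout while Xist was detected in all 6 libraries. Some transcripts differed between libraries across the genotypes, such as B2m with 3803, 3020 and 5102 counts in WT 1, PYK2 KO 3 and PYK2 KO 4 and with 939, 607 and 1631 in WT 5, WT 6 and PYK2 KO 2. The part of such differences in the values below was not tested, but their leading component was entered as a covariate in an alternative fit.

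TFEB and TFE3 bind E-box sequences, and their best known site holds the core CACGTG, which reads the same on both strands. Among the RefSeq promoter windows (GRCm38, from 250 bases before to 50 bases after a start site), 30 of the 37 genes had an entry and 5 of these 30, or 16.7%, held the core, against 8.09% of all 27025 genes. The 5 genes were Rragc and Lamtor1 of the nutrient sensor on the lysosome, and Atg3, Atg5 and Atg7 of the conjugation machinery. The stretches around the core, with 30 bases on either side, are shown because they set these 5 genes apart by sequence from the other members that had a window. They lie at chr4:123917291-123917356 for Rragc, chr7:101905739-101905804 for Lamtor1, chr16:45158705-45158793 for Atg3, chr10:44268295-44268360 for Atg5 and chr6:114670934-114670999 for Atg7, all on the plus strand, 5′ to 3′, with the core in capitals.
Rragc: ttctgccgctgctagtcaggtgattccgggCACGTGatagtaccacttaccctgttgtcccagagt
Lamtor1: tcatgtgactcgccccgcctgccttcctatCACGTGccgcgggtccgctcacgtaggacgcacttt
Atg3: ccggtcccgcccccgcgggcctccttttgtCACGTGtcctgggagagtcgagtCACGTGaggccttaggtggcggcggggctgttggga
Atg5: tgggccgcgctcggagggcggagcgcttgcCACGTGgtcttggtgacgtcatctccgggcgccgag
Atg7: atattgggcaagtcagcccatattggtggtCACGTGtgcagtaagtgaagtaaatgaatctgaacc
The core begins 112 bases before the start site in Rragc, 68 in Lamtor1, 14 in Atg5 and 132 in Atg7. Atg3 is the member with 2 copies, which begin 94 and 71 bases before its start site. The window of Atg7 belongs to a start site inside the gene, which GENCODE M21 annotates from 114643097 on chromosome 6. A match of letters is a description and not a binding site. No window was found in the table for Rb1cc1, Pik3c3, Becn1, Atg12, Atg16l1, Map1lc3a and Epg5.

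The question was whether loss of PYK2 came with a different level of these transcripts. None of the 36 tested genes passed the threshold of an adjusted p-value under 0.05 in edgeR's quasi-likelihood test (0 higher and 0 lower), where 0.255% of all tested genes did (0.143% lower and 0.112% higher in PYK2 KO), and none passed with DESeq2, limma voom or edgeR's likelihood ratio test either. The smallest adjusted p-value was 0.508, for Map1lc3a, and this gene was also the only 1 of the 36 with an unadjusted p-value under 0.05, where 6.03% of all tested genes had such a value (2.63% lower and 3.4% higher in PYK2 KO). The median log2 fold change (PYK2 KO against WT) was -0.02 for the 36 genes and 0.0019 for all tested genes. Estimates were below 0 for 21 genes and above 0 for 15, and they ran from -0.44 for Map1lc3a to 0.24 for Epg5.

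A p-value above the threshold does not show that levels were equal, and the intervals give the size of change that the spread between mice allows. For 33 of the 36 genes the 95% interval of the fold change lay within 1.5-fold in either direction. This held for 6788 of all 9815 tested genes. The 3 members whose interval reached further were Map1lc3a, Optn and Epg5. The median standard error of the log2 fold change was 0.11 for the module and 0.15 for all tested genes. Between mice of the same genotype, the level of a member varied with a median coefficient of variation of 9.52%, from 2.38% for Tfe3 to 20.0% for Wdr45, against 11.7% for all tested genes. This variation includes counting error as well as differences between mice. The lowest WT mean was 16.3 CPM among the members and 0.264 CPM among all tested genes, so the 2 sets differed in how well they were counted. RNA from a whole culture was measured, so fewer cells that express a gene and less RNA per cell cannot be told apart.

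**Figure D1:**
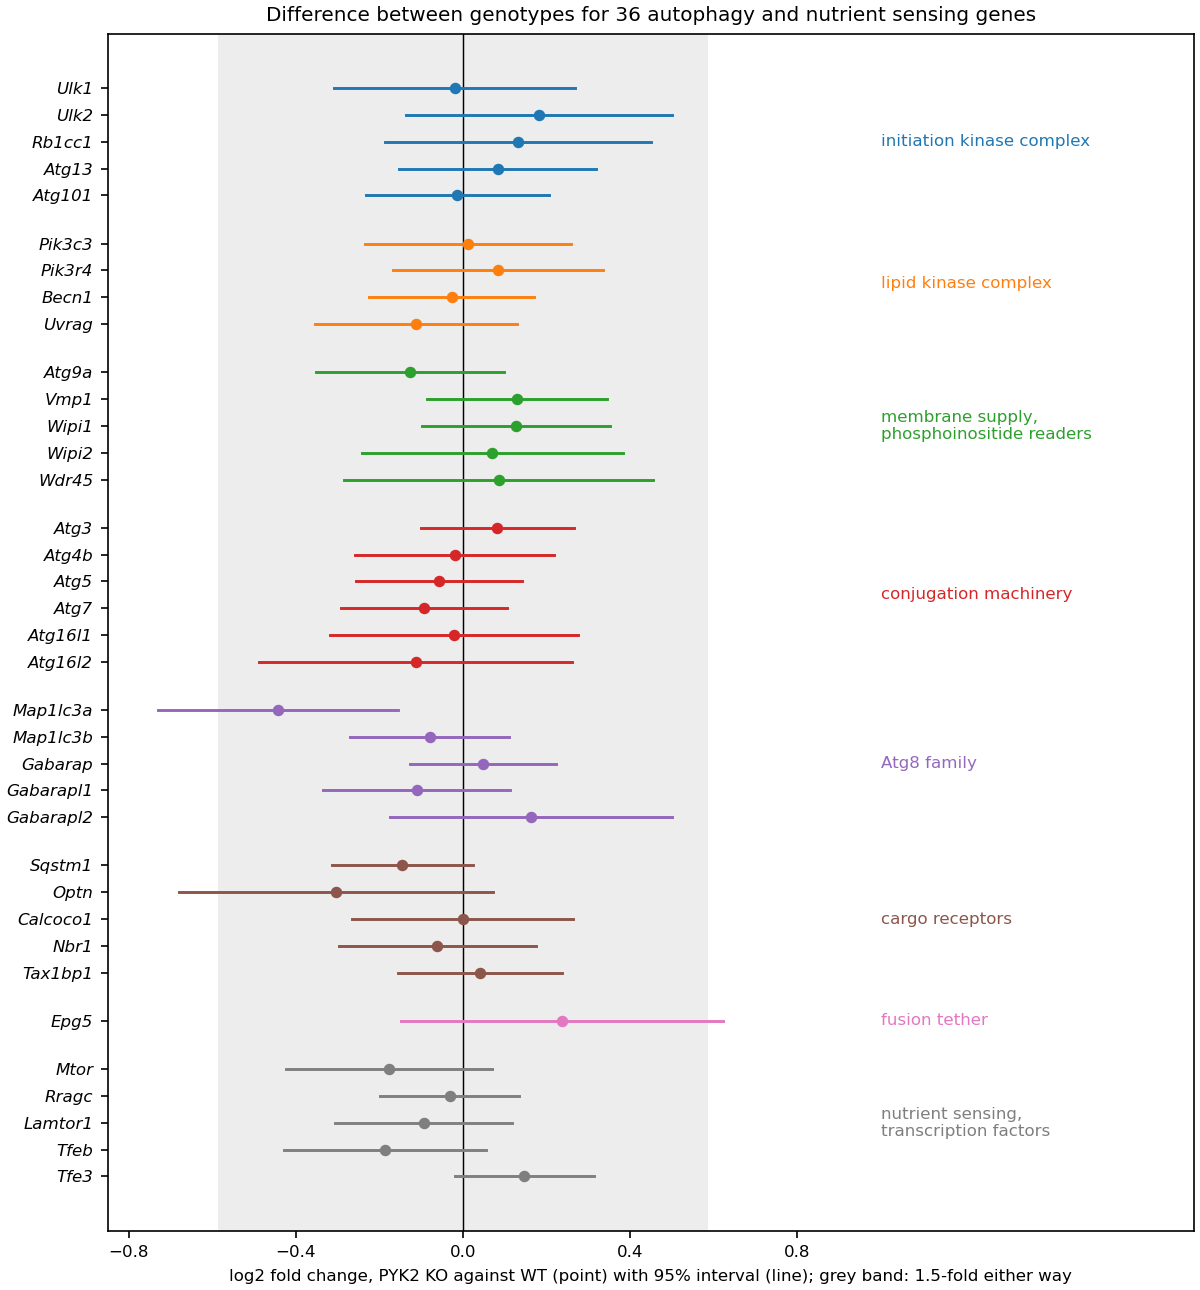
Log2 fold change of PYK2 KO against WT on the x axis (point) with its 95% interval (line) for the 36 tested genes, grouped by role on the y axis, with a grey band that marks 1.5-fold in either direction. The intervals of 33 genes lie inside the band and that of Map1lc3a is the only interval that leaves out 0.

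**Figure D2:**
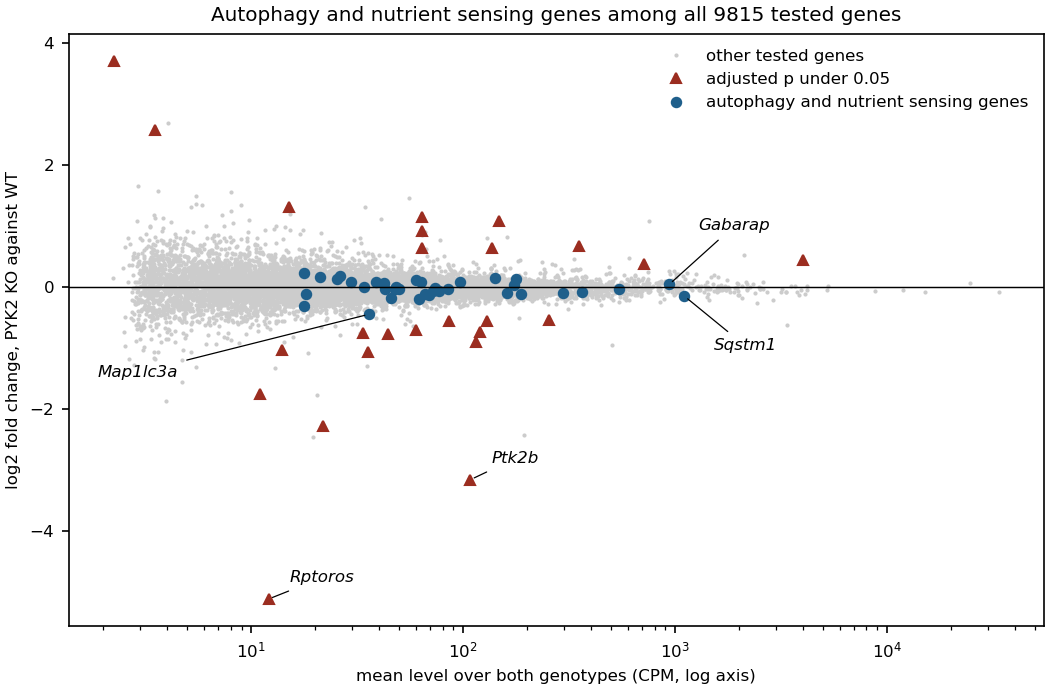
Mean level over both genotypes in CPM (x axis, log scale) against the log2 fold change of PYK2 KO against WT (y axis) for 9815 tested genes, with the 36 autophagy and nutrient sensing genes in blue and the 25 genes with an adjusted p-value under 0.05 as red triangles. The blue points stay between -0.44 and 0.24 while Ptk2b lies at -3.15.

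Initiation was represented by the ULK1 complex, which consists of a kinase (Ulk1 or its relative Ulk2), the scaffold FIP200 (Rb1cc1) and the adaptors Atg13 and Atg101. None of its 5 genes passed the test and the genotypes overlapped for each of them. Ulk1 was at 60.3, 45.3 and 43.8 CPM in WT and at 45.6, 55.4 and 47.7 CPM in PYK2 KO, so WT 1 was the highest library and the others were mixed (log2 fold change -0.02, 95% interval -0.31 to 0.27). Ulk2 had the largest estimate of the group at 0.18, with an interval from -0.14 to 0.50. For Rb1cc1 the log2 fold change was 0.13, for Atg13 0.08 and for Atg101 -0.01. The lipid kinase complex, which makes the phosphoinositide that marks the site of membrane growth, followed. Its catalytic subunit Pik3c3 had a log2 fold change of 0.01, the regulatory subunit Pik3r4 0.08, the scaffold Becn1 -0.03 and the subunit Uvrag, which works in endosome and autophagosome maturation, -0.11. The level of Becn1 averaged 85.8 ± 1.16 CPM over WT and 84.1 ± 7.27 CPM over PYK2 KO mice (SD, n = 3 each). Its last 1000 bases share 746 with Cntd1 on the opposite strand, which had at most 5 counts per library. None of these 4 genes passed the test, and the widest of their intervals ran from -0.17 to 0.34, for Pik3r4.

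Membrane for the growing autophagosome is supplied through Atg9a, a lipid scramblase carried on vesicles, and Vmp1, a scramblase of the endoplasmic reticulum, while Wipi1, Wipi2 and Wdr45 read the phosphoinositide mark. Estimates were above 0 for 4 of these 5 genes and none passed the test. Wipi1 was at 60.27, 59.34 and 51.17 CPM in WT and at 60.31, 60.96 and 65.87 CPM in PYK2 KO. All 3 PYK2 KO values lay above all 3 WT values, but PYK2 KO 2 and WT 1 were nearly equal and the log2 fold change of 0.13 had an interval from -0.10 to 0.35 (adjusted p = 0.935). Vmp1 was at 153, 154 and 199.8 CPM in WT and at 172, 189 and 192 CPM in PYK2 KO, where WT 6 was the highest library of all. Its log2 fold change was 0.13, and 0.26 without WT 6 (adjusted p = 0.635). Wipi2 and Wdr45 had log2 fold changes of 0.07 and 0.09 and Atg9a -0.13. In GENCODE M21 the last 1000 bases of Vmp1 also hold the microRNA gene Mir21a, which had 0 counts in all libraries. On the same strand, Atg9a shares all of its last 1000 bases with Gm29253 and Wdr45 shares 211 with Gm45208, and both of these other genes had 0 counts. How reads from shared bases were assigned is not given in the sources used here. The part of Mir21a, Gm29253 and Gm45208 in the values above was therefore not tested.

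The conjugation machinery attaches Atg8 proteins to lipid. Atg7 is the activating enzyme, Atg3 the enzyme that hands Atg8 proteins to lipid, Atg4b the protease that trims and recycles them, and Atg5, Atg12 and Atg16l1 form the complex that directs the reaction to the membrane. None of the 6 tested genes passed the test, 5 of the 6 estimates lay below 0, and all 6 intervals stayed within 1.5-fold. Atg7 was at 166, 186 and 145 CPM in WT and at 164, 156 and 148 CPM in PYK2 KO (log2 fold change -0.09, 95% interval -0.29 to 0.11). Atg3, the gene with 2 E-box cores, was at 98.6, 88.7 and 93.9 CPM in WT and at 100.4, 97.3 and 100.1 CPM in PYK2 KO (log2 fold change 0.08, 95% interval -0.10 to 0.27). For both genes the genotypes overlapped. Atg5 had a log2 fold change of -0.06, Atg4b -0.02, Atg16l1 -0.02 and its relative Atg16l2 -0.11. Atg12 had 1, 1 and 2 counts in WT and 4, 0 and 0 counts in PYK2 KO libraries, or 8 counts in all, and was not tested. With so few counts a change in Atg12 was not detectable, and why its counts were so few was not tested.

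Map1lc3a, which encodes the LC3A protein of the Atg8 family, had the largest difference in the module. The gene lies at chr2:155276297-155278073 on the plus strand (GRCm38). It had 162, 160 and 107 counts in WT and 96, 99 and 89 counts in PYK2 KO libraries. After scaling this was 41.4, 44.8 and 37.5 CPM in WT and 30.8, 34.3 and 26.5 CPM in PYK2 KO, so every PYK2 KO value lay below every WT value. The mean in PYK2 KO was 74.1% of that in WT, with 30.5 ± 3.89 against 41.2 ± 3.64 CPM (SD, n = 3 mice each). The log2 fold change was -0.44 (standard error 0.14, 95% interval -0.73 to -0.15), which is a level between 0.603 and 0.899 times that of WT. The unadjusted p-value was 0.00499 and the adjusted p-value 0.508 in edgeR's quasi-likelihood test, so the gene did not pass over all tested genes. Values of the genotypes did not overlap for 4 of the 36 members (Map1lc3a and Sqstm1 lower, Wipi1 and Tfe3 higher in PYK2 KO) and for 10.2% of all tested genes (5.07% lower and 5.17% higher). In the 15 alternative fits the log2 fold change stayed between -0.53 and -0.35, the unadjusted p-value stayed below 0.05 in all 15, and the adjusted p-value ran from 0.155 to 0.9999.

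For the other 4 members of the Atg8 family the genotypes overlapped, and whether their change differed from that of Map1lc3a was not tested. Map1lc3b, which encodes LC3B, the protein most used to stain autophagosomes, was at 403, 383 and 329 CPM in WT and at 351, 364 and 342 CPM in PYK2 KO. In this gene WT 6 was the lowest and WT 1 the highest library, and the log2 fold change was -0.08 (95% interval -0.27 to 0.11). Gabarap was at 913, 1009.9 and 844 CPM in WT and at 939, 941 and 983 CPM in PYK2 KO. The 3 PYK2 KO values fell inside the range of WT, and the log2 fold change was 0.05 (95% interval -0.13 to 0.22). Gabarapl1 was at 216, 206 and 161 CPM in WT and at 174, 169 and 198 CPM in PYK2 KO, again with WT 6 lowest (log2 fold change -0.11, 95% interval -0.33 to 0.11). Gabarapl2 was at 22.2, 19.9 and 17.2 CPM in WT and at 22.1, 20.1 and 24.4 CPM in PYK2 KO (log2 fold change 0.16, 95% interval -0.18 to 0.50). WT 6 was the lowest WT library for all 5 Atg8 family genes. In GENCODE M21, 58 exonic bases at the end of Map1lc3b are shared with Zcchc14 on the opposite strand, which had between 15 and 31 counts per library.

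**Figure D3:**
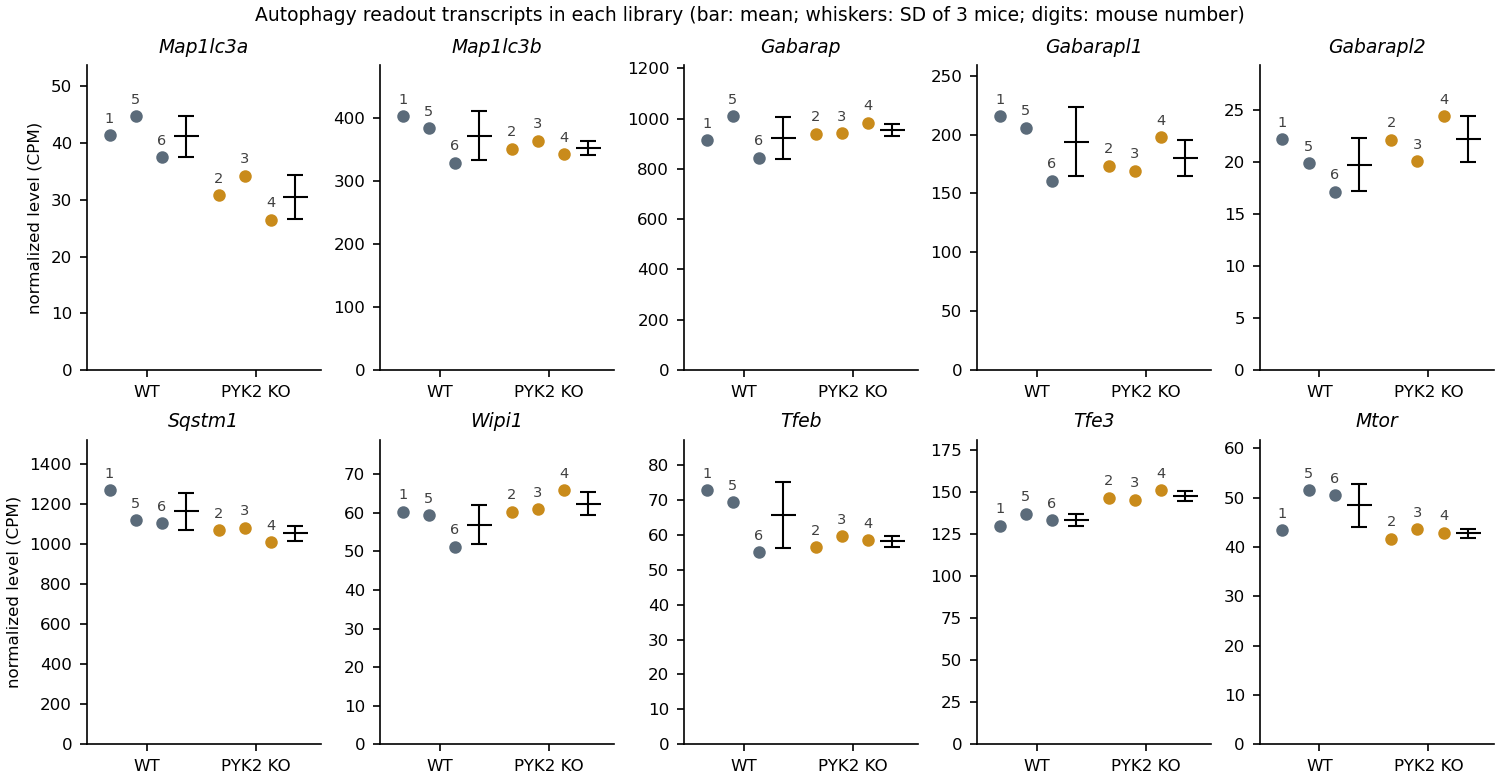
Normalized level in CPM (y axis, from 0) of 10 autophagy readout genes in each WT (grey) and PYK2 KO (gold) library, with the mouse number above each point and the mean with its SD (3 mice) beside the points. The PYK2 KO points of Map1lc3a (26.5 to 34.3 CPM) lie below the WT points (37.5 to 44.8 CPM), those of Tfe3 lie above them, and WT 6 is the lowest WT library in all 5 panels of the upper row.

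Cargo receptors link ubiquitin-tagged or damaged material to Atg8 proteins. Sqstm1, which encodes p62, was at 1267, 1117 and 1103 CPM in WT and at 1067, 1080.0 and 1007 CPM in PYK2 KO. The values of the genotypes did not overlap and the mean in PYK2 KO was 90.5% of that in WT, but the gap between the nearest libraries was small beside the spread within WT. Its log2 fold change of -0.14 had an interval from -0.31 to 0.02 and an adjusted p-value of 0.894. The end of Sqstm1 shares 580 exonic bases with Mrnip on the opposite strand, which had between 21 and 45 counts per library against at least 3118 for Sqstm1. Optn, which encodes optineurin, a receptor for bacteria and damaged mitochondria, had between 42 and 91 counts per library and a log2 fold change of -0.30 (95% interval -0.68 to 0.07). Its levels overlapped between genotypes, at 23.2, 17.4 and 17.9 CPM in WT and 15.4, 14.5 and 17.6 CPM in PYK2 KO. For Nbr1, a receptor related to p62, the log2 fold change was -0.06, for Tax1bp1, a receptor of microbes and protein aggregates, 0.04, and for Calcoco1, a receptor in the turnover of endoplasmic reticulum, -0.0002. The last of these was the value closest to 0 in the module. Epg5, a tether that helps autophagosomes fuse with lysosomes, had between 48 and 61 counts per library and a log2 fold change of 0.24 with an interval from -0.15 to 0.62, so its estimate was among the least precise. Leaving out 1 library gave log2 fold changes for Epg5 from 0.12 without WT 5 to 0.39 without WT 6, and for Optn from -0.39 without PYK2 KO 4 to -0.15 without WT 1.

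The nutrient sensing genes were led by Mtor, the kinase of mTORC1. Mtor was at 43.4, 51.5 and 50.5 CPM in WT and at 41.7, 43.6 and 42.9 CPM in PYK2 KO. The PYK2 KO libraries lay close together and PYK2 KO 3 was level with WT 1 (log2 fold change -0.18, 95% interval -0.42 to 0.07, adjusted p = 0.912). Rragc, the Rag GTPase that with its partner recruits mTORC1, was at 540, 582 and 528 CPM in WT and at 546, 526 and 542 CPM in PYK2 KO, with an interval from -0.20 to 0.13. Lamtor1, the Ragulator subunit that anchors the complex in the lysosomal membrane, was at 316, 307 and 296 CPM in WT and at 315, 307 and 241 CPM in PYK2 KO. PYK2 KO 4 stood below the other 5 libraries, and the log2 fold change was -0.09 with all libraries and 0.02 without PYK2 KO 4.

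The related transcription factors Tfeb and Tfe3 had estimates of opposite sign. Tfeb was at 72.8, 69.4 and 55.03 CPM in WT and at 56.5, 59.6 and 58.4 CPM in PYK2 KO. WT 1 and WT 5 were above and WT 6 below all PYK2 KO libraries (log2 fold change -0.19, 95% interval -0.43 to 0.06, adjusted p = 0.912). Tfe3 was at 129.99, 137 and 133 CPM in WT and at 147, 145 and 151 CPM in PYK2 KO, so all PYK2 KO values lay above all WT values. Its level averaged 133 ± 3.59 CPM over WT and 148 ± 2.98 CPM over PYK2 KO mice (SD, n = 3 each). The log2 fold change of 0.15 had an interval from -0.02 to 0.31 and did not pass (adjusted p = 0.882). Of the further relatives in the same family, Mitf averaged 29.3 ± 1.66 CPM over WT and 32.5 ± 5.76 CPM over PYK2 KO mice, and Tfec 12.8 ± 0.866 and 15.8 ± 2.01 CPM (SD, n = 3 each). Both overlapped between genotypes. The 5 genes with an E-box core had log2 fold changes of -0.03 (Rragc), -0.09 (Lamtor1), 0.08 (Atg3), -0.06 (Atg5) and -0.09 (Atg7), all with intervals that held 0.

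Ratios between related members within a library do not depend on library scaling, and gene length cancels when the same ratio is compared between libraries. Of 8 such ratios, which were chosen with the values above known and are given without a test, 2 did not overlap between genotypes. The ratio of Map1lc3a to Map1lc3b counts was 0.103, 0.117 and 0.114 in WT and 0.0878, 0.0943 and 0.0776 in PYK2 KO. That of Tfe3 to Tfeb was 1.79, 1.98 and 2.42 in WT and 2.60, 2.44 and 2.59 in PYK2 KO, where WT 6 came close to PYK2 KO 3. Ulk1 to Ulk2 ran from 1.69 to 2.78 in WT and from 1.45 to 2.25 in PYK2 KO, and Atg16l1 to Atg16l2 from 1.79 to 3.02 and from 1.76 to 2.96. The ratios among the other Atg8 genes and of Wipi1 to Wipi2 overlapped too.

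**Figure D4:**
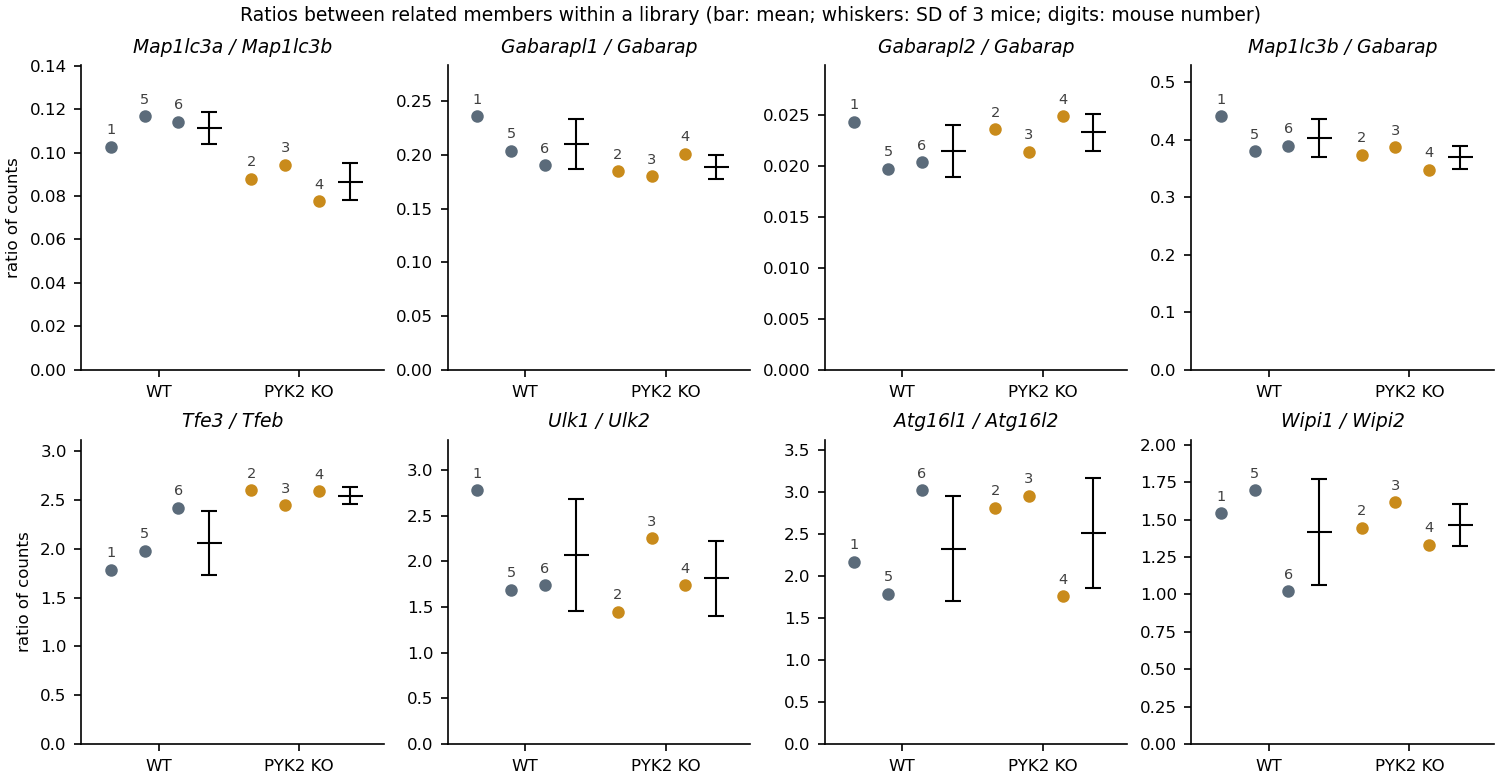
Ratio of the counts of related members (y axis, from 0) in each WT (grey) and PYK2 KO (gold) library for 8 pairs, with the mouse number above each point and the mean with its SD (3 mice) beside the points. The PYK2 KO points lie below the WT points for Map1lc3a to Map1lc3b (0.0776 to 0.0943 against 0.103 to 0.117) and above them for Tfe3 to Tfeb (2.44 to 2.60 against 1.79 to 2.42), and overlap in the other 6 panels.

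As a whole the 37 genes took between 0.517% and 0.558% of all counts in a library. Their levels summed to 5581, 5501 and 5181 CPM in WT and to 5270.1, 5316 and 5264 CPM in PYK2 KO. The PYK2 KO sums fell inside the range of WT, with a mean of 5421 ± 212 CPM over WT and 5283 ± 28.4 CPM over PYK2 KO mice (SD, n = 3 each). WT 6 was the library in which most members were at their lowest, 10 of 36, and WT 1 that in which most were at their highest, 9 of 36. Without WT 6, 5 of the 36 members had an unadjusted p-value under 0.05 in place of 1, where 6.95% of all genes tested in that fit had such a value. These were Map1lc3a (log2 fold change -0.50), Tfeb (-0.29), Gabarapl1 (-0.22), Sqstm1 (-0.18) and Vmp1 (0.26), and none had an adjusted p-value below 0.457. Each of the other 5 fits with 1 library left out had 1 such member, and without WT 1 the estimates were -0.11 for Tfeb, -0.03 for Gabarapl1, -0.08 for Sqstm1 and 0.06 for Vmp1.

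Genes of the pathway outside the 37 were taken from 3 lists. Of 45 further autophagy genes 42 were tested, and 0 passed the threshold in either direction (24 estimates below 0 and 18 above, median log2 fold change -0.0085). Only Ambra1, a Beclin 1 partner, had an unadjusted p-value under 0.05, with a mean of 35.7 ± 4.67 CPM over WT and 28.7 ± 2.15 CPM over PYK2 KO mice (SD, n = 3 each) and a log2 fold change of -0.32 (adjusted p = 0.787). Of 53 further mTORC1 and nutrient sensing genes 51 were tested and 0 passed, with 29 estimates below 0, 22 above and a median of -0.0074. Genotypes did not overlap for 2 lower and 1 higher of the 42 autophagy genes and for 5 lower and 0 higher of the 51. Among all tested genes this held for 5.07% lower and 5.17% higher in PYK2 KO. An unadjusted p-value under 0.05 was found for 4 of the 51, with lower estimates for 3 and a higher one for 1, where 6.03% of all tested genes had such a value (2.63% lower and 3.4% higher). DESeq2, limma voom and edgeR's likelihood ratio test called 0 genes of these lists as well.

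Among these 4 was Flcn, which encodes folliculin, the activator of GTP hydrolysis on RagC and RagD that mTORC1 needs to act on TFEB and TFE3. It had 450, 406 and 285 counts in WT and 286, 270 and 308 counts in PYK2 KO libraries. Its level averaged 109 ± 8.33 CPM over WT and 92.4 ± 1.01 CPM over PYK2 KO mice (SD, n = 3 each), without overlap between genotypes. Its log2 fold change was -0.25 (95% interval -0.44 to -0.06) with an adjusted p-value of 0.617. The others were Sec13 (-0.18) and Seh1l (0.43), both subunits of GATOR2, which relays amino acid signals to the Rag GTPases, and Prkag1 (-0.23), a subunit of the energy sensor AMPK. Of the 15 alternative fits, the unadjusted p-value stayed under 0.05 in 15 for Flcn, 11 for Prkag1, 10 for Ambra1, 8 for Seh1l and 7 for Sec13. Without PYK2 KO 4 the log2 fold change of Seh1l was 0.27 and that of Prkag1 -0.13. Of 21 lysosomal TFEB target genes 20 were tested and 0 passed or had an unadjusted p-value under 0.05, while 16 estimates lay below 0 and 4 above (4854 and 4961 of all tested genes), with a median of -0.06. All 20 intervals lay within 1.5-fold, as did those of 6788 of all 9815 tested genes. Genotypes did not overlap for 3 of the 20, Ctsa, Atp6v0d1 and Atp6v1h, all lower in PYK2 KO, where this held for 5.07% of all tested genes.

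Rptor encodes Raptor, the subunit that makes mTOR part of mTORC1, and it shares its locus with Rptoros, a transcript annotated on the opposite strand. Rptoros had 83, 86 and 72 counts in WT and 1, 2 and 3 counts in PYK2 KO libraries (adjusted p = 1.68e-07), which makes it one of the 25 genes called over all tested genes. Rptor had 175, 185 and 142 counts in WT and 144, 141 and 143 counts in PYK2 KO, or 48.7 ± 3.66 and 45.9 ± 3.12 CPM (SD, n = 3 mice each). Its genotypes overlapped, and the log2 fold change of -0.09 had an interval from -0.33 to 0.16. The last 1000 bases of Rptoros share 84 exonic bases with Rptor, and whether the counting used strand is not given in the sources used here, so reads from these 84 bases cannot be assigned with certainty.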

How the data were processed

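For the 6 libraries, raw counts of each gene were deposited as whole numbers by the authors, who ran the UTAP pipeline on bulk MARS-seq reads. The submitters' processing notes name cutadapt, STAR and mm10. The annotation, the use of strand and of molecular identifiers are not given in the sources used here, so intervals cover the spread between mice and counting error only. Each column was matched to its mouse by name, and 0 columns belonged to other samples. The 3 libraries per genotype are separate mice, and no pair was a duplicate (chi-square per degree of freedom of at least 2.22 within genotypes).

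The genotypes were compared by edgeR's quasi-likelihood test (version 4.0.16, under R 4.3.3) after filterByExpr and TMM scaling, over all genes, with Benjamini-Hochberg adjustment and a threshold of 0.05. Standard errors and 95% intervals were derived from F and the log2 fold change. CPM used the scaled library sizes. They count transcript ends and were compared between libraries, not between genes. The code was tested on simulated data. Alternatives were DESeq2 1.42.0, limma 3.58.1 (voom), other scalings, filters and tests, a fit with the leading residual component as covariate, and leaving out each library. Members and lists were chosen with earlier results of these data known. Values in every library are given for members with an unadjusted p-value under 0.05, without overlap, or central to the pathway (the Atg8 family, Sqstm1, Tfeb, Tfe3, Mtor), and other pathway genes are named at an unadjusted p-value under 0.05, besides Ptk2b, and Rptoros with Rptor opposite to it. Ulk1, Becn1, Vmp1, Atg3, Atg7, Optn, Rragc, Lamtor1, Mitf, Tfec, Ctsa, Atp6v0d1 and Atp6v1h were named or given in more detail after their values were seen. Positions and overlaps (last 1000 bases of a gene) are from GENCODE M21, where all 37 symbols matched 1 gene, and promoter windows from RefSeq (GRCm38.p6). The other markers of the B cell list are not reported here.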

Additional observations from a re-analysis of the deposited data

How the results depend on the processing

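No paired analysis was run, because the labels name no litter, culture or library batch by which mice could be paired. The number of members past the threshold was 0 in all 15 alternative fits, as was that of the other pathway genes, and 14 to 159 of all genes passed in the same fits. The median log2 fold change of the members ran from -0.03 to -0.0014 and that of Ptk2b from -3.19 to -3.11. Of 615 values of 41 single genes, 582 had the sign and call of the value reported and 33 changed sign, all of estimates that had not passed. Calcoco1 was above 0 with upper quartile scaling (0.0094), without scaling (0.0077), with at least 10 counts in every library (0.00035) and with DESeq2 (0.00057). With 1 library left out at a time, the sign changed for 15 genes, whose values ran from -0.10 to 0.15 for Ulk1, from -0.0056 to 0.17 for Atg13, from -0.091 to 0.048 for Atg101, from -0.051 to 0.083 for Pik3c3, from -0.077 to 0.039 for Becn1, from -0.045 to 0.22 for Wipi2, from -0.080 to 0.26 for Wdr45, from -0.064 to 0.028 for Atg4b, from -0.13 to 0.10 for Atg16l1, from -0.011 to 0.12 for Gabarap, from -0.060 to 0.036 for Calcoco1, from -0.12 to 0.038 for Nbr1, from -0.034 to 0.11 for Tax1bp1, from -0.060 to 0.011 for Rragc and from -0.17 to 0.020 for Lamtor1. Counts per library limit what could be seen for Atg12 (at most 4 counts), Atg16l2, Optn and Epg5.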
